A study of Mus musculus with 6 samples.

Results

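The thrombospondin gene *Thbs1* and the TGF-β axis around it were followed in mouse lung epithelial cells as 9 of the 54532 genes in the count table. These were the thrombospondins *Thbs1*, *Thbs2* and *Thbs3*, the ligands *Tgfb1*, *Tgfb2* and *Tgfb3*, the receptors *Tgfbr1* and *Tgfbr2*, and the inhibitory SMAD *Smad7*, each taken by its symbol. *Thbs1* was chosen by its adjusted p, which was among the 10 past the threshold when all samples were compared, so its own difference is given as a description. The other 8 were added for their place in the same pathway. Of the 9 genes, 8 passed the filter on low counts, and *Thbs2* had 0 counts in every library.

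RNA-seq was performed on MLE12 cells, a mouse lung epithelial line immortalised with the large T antigen of a simian virus, which the labels give as strain C57BL/6J. The 3 Ctrl shRNA samples carried a negative control lentivirus at an MOI (viruses per cell) of 50. The study calls this vector empty but also names it shCtrl and lists a sequence for it, so whether it expressed a hairpin is not clear. The 3 Idh3α shRNA + Slc25a1 shRNA samples, called the knockdown here, received a lentivirus silencing *Idh3a* and another silencing *Slc25a1* at the same time, each at an MOI of 50. All cells received the transduction enhancer HitransG P, were washed at 16 h and were kept for a further 80 h in medium with serum. The comparison asked how cells with *Idh3a* and *Slc25a1* silenced differ in their transcripts. The silencing was aimed at the use and export of mitochondrial citrate, which these RNA data do not measure. *Idh3a* encodes a subunit of the mitochondrial isocitrate dehydrogenase and *Slc25a1* the mitochondrial citrate carrier. The effects of the knockdown and of a second virus cannot be told apart. No source used here says whether the 3 samples of a group were separate cultures, so the p-values measure only the spread between these samples, which may be technical.

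Thrombospondins are secreted glycoproteins of the matrix. The *Thbs1* product binds the latent form of TGF-β and can release the active ligand. Active ligand brings together the type II and type I receptors, which phosphorylate SMAD proteins that enter the nucleus, and SMAD-driven transcription includes *Smad7*, which shuts the receptor down. In the lung epithelium TGF-β restrains proliferation, promotes matrix production and takes part in repair after injury.

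The libraries held 27273502 to 28535653 counted reads. Ctrl shRNA replicate 2 stood apart, with a TMM scaling factor of 0.711 against 1.05 to 1.09 in the other 5 libraries, which lowers its effective depth, with 16681 genes detected against 19902 to 23147 and with 6.49% of its counts from mitochondrially encoded genes against 1.57 to 1.80%. The fold changes below are therefore given with and without it, and levels and shares per library or as group means of all libraries. *Idh3a* stood at 79.8, 137 and 93.0 CPM, the count scaled to library size, in the Ctrl shRNA group and at 58.5, 57.9 and 55.5 CPM in the knockdown. *Slc25a1* stood at 103, 98.7 and 108 CPM against 68.9, 69.6 and 63.0 CPM, so neither group overlapped the other for the targeted genes. Over all genes tested 10.7% were apart in this direction. The log2 fold change of *Idh3a* was -0.85 (edgeR adjusted p = 0.254), and -0.60 (edgeR adjusted p = 0.0142) without Ctrl shRNA replicate 2. That of *Slc25a1* was -0.62 (edgeR adjusted p = 0.104), and -0.66 (edgeR adjusted p = 0.00649) without it. EdgeR with all libraries thus called neither targeted gene, while DESeq2 called both lower (adjusted p = 0.0205 and 5.8e-06). The epithelial markers *Nkx2-1* and *Krt8* were abundant in every library, at no less than 277 and 232 CPM. The epithelial markers *Epcam* and *Krt18* were low, at 2.39 to 4.01 CPM and at no more than 0.527 CPM, and the surfactant genes *Sftpa1* and *Sftpb*, which mark alveolar type II cells, did not exceed 0.0672 and 2.49 CPM. Other type II markers were present, *Sftpc* at 27.2 to 97.3 CPM and the lipid transporter *Abca3* at 110 to 141 CPM. The 10 epithelial markers summed to 837 to 899 CPM in the Ctrl shRNA group and 784 to 838 CPM in the knockdown. The 7 leukocyte and platelet markers summed to 14.8 to 20.5 CPM and 17.6 to 19.4 CPM, with *Ptprc*, *Itgam*, *Pf4* and *Ppbp* at 0 in all libraries. Most of that sum came from the platelet marker *Itga2b*, at 12.9 to 18.7 CPM. The 5 endothelial markers summed to 37.1 to 46.8 CPM and 32.5 to 33.9 CPM, most of it from *Tek* at 31.5 to 45.8 CPM. The 6 fibroblast markers summed to 346 to 1234 CPM and 317 to 345 CPM, with *Col3a1* at 0. Most of the sum came from *Dcn* in every library, at 1211 CPM in Ctrl shRNA replicate 2 and 297 to 354 CPM in the other 5 libraries. None of these marker genes passed the threshold in edgeR or DESeq2 with all libraries. *Sftpc* passed it without Ctrl shRNA replicate 2, with a log2 fold change of -0.65 (edgeR adjusted p = 0.0438) against -1.07 (edgeR adjusted p = 0.315) with all libraries, and voom with sample quality weights also called *Sftpc* and *Nkx2-1* lower and *Pdgfra* higher. The part of other cells or of RNA quality in the results below was not tested.

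*Thbs1* was higher in the knockdown by 2.18-fold, with every knockdown library above every Ctrl shRNA library. The gene (ENSMUSG00000040152, chr2:118111876-118127133 on GRCm38, plus strand) collected 2019, 1158 and 1686 reads in Ctrl shRNA replicates 1, 2 and 3 and 3885, 4036 and 4008 reads in knockdown replicates 1, 2 and 3. After scaling, the level was 65.2, 58.6 and 58.8 CPM in the Ctrl shRNA group and 131, 133 and 135 CPM in the knockdown. The means were 60.9 ± 3.77 and 133 ± 2.30 CPM (SD, n = 3 each), so the gap between the groups was many times the spread within either. Since RNA was measured in bulk, more cells expressing the gene and more RNA per cell cannot be told apart. The library that stood apart lay with the other controls for *Thbs1*. The log2 fold change was 1.13 (SE 0.07, 95% interval 0.95 to 1.31), with an adjusted p of 0.0182 in edgeR (quasi-likelihood test, Benjamini-Hochberg over all genes). Without Ctrl shRNA replicate 2 it was 1.09 (SE 0.07, 0.92 to 1.26; edgeR adjusted p = 0.000557). Both intervals include 1, a 2-fold difference. These are the values that chose the gene. Among the 15307 genes tested *Thbs1* ranked 3 by p and 163 by log2 fold change, so many genes with larger but more variable differences lay ahead of it. When any other single library was left out the log2 fold change stayed between 1.09 and 1.18, but edgeR's adjusted p went above the threshold, to 0.0709 without Ctrl shRNA replicate 1, 0.229 without Ctrl shRNA replicate 3, and 0.258, 0.217 and 0.255 without knockdown replicates 1, 2 and 3. A noncoding gene on the opposite strand, *Gm29233*, shares 208 exonic bases with *Thbs1* and had 0 counts.

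The other thrombospondins looked different. *Thbs2* (chr17:14665500-14694235, minus strand), a close relative of *Thbs1* that binds cells and matrix but does not activate TGF-β, had 0 counts in all 6 libraries. A count of 0 allows up to 3 reads, or 0.0969 to 0.152 CPM depending on the library, by counting error alone. *Thbs3* (chr3:89215180-89226837, plus strand), a member of the pentameric branch of the family, was measured at 3.39, 4.05 and 2.72 CPM in the Ctrl shRNA group. In the knockdown it stood at 2.99, 3.82 and 3.95 CPM, so the groups overlapped across most of their range. The log2 fold change of *Thbs3* was 0.09 (SE 0.22, 95% interval -0.45 to 0.63; edgeR adjusted p = 0.864), and 0.22 without Ctrl shRNA replicate 2. *Thbs3* values are uncertain, because 318 of its exonic bases are shared with *Mtx1* on the opposite strand, which collected a mean of 743 reads against 97.5 for *Thbs3*, and the use of strand in counting is not given in the sources used here. Of the 2 remaining family genes, *Thbs4* stood at 8.54 ± 2.77 CPM in the Ctrl shRNA group and 11.5 ± 0.723 CPM in the knockdown, a log2 difference of 0.42 that was 0.17 without Ctrl shRNA replicate 2. *Comp*, the cartilage thrombospondin, stood at 0.869 ± 0.229 and 0.690 ± 0.0614 CPM. Neither passed the threshold in either fit. On the FPKM scale, which divides by gene length, the 5 family genes summed to 13.7 ± 1.41 in the Ctrl shRNA group and 26.4 ± 0.564 in the knockdown. *Thbs1* made up 73.8 ± 3.70% and 83.0 ± 0.877% of that sum (SD, n = 3 each).

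Among the ligands, *Tgfb2* was the abundant transcript and the only one whose groups did not overlap. Over all genes tested 14.7% were apart in the higher direction, so such a separation was common. TGF-β ligands are made as latent dimers and act on the cells that secrete them and on their neighbours. *Tgfb2* (ENSMUSG00000039239, chr1:186622792-186705989, minus strand) stood at 236, 216 and 224 CPM in the Ctrl shRNA group and at 257, 271 and 257 CPM in the knockdown. The lowest knockdown library thus lay above the highest control, although the step was small beside that of *Thbs1*. The means were 225 ± 10.5 and 262 ± 7.88 CPM, a fold of 1.16. The log2 fold change was 0.22 (SE 0.08, 95% interval 0.03 to 0.40), and the adjusted p of 0.341 by edgeR with Benjamini-Hochberg adjustment missed the threshold. Without Ctrl shRNA replicate 2 the log2 fold change of *Tgfb2* was 0.18 (0.02 to 0.33; edgeR adjusted p = 0.206). DESeq2 gave an adjusted p of 0.198, and limma voom with sample quality weights, which gave Ctrl shRNA replicate 2 a weight of 0.101 against 0.621 to 3.19 for the others, called it at 0.0275 with a log2 fold change of 0.20. That voom fit called 8.67% of all genes higher.

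*Tgfb1* and *Tgfb3* overlapped between the groups and changed sign with the library that stood apart. *Tgfb1* (chr7:25687002-25705077, plus strand), the isoform most studied in fibrosis and immunity, stood at 22.0, 14.9 and 18.3 CPM in the Ctrl shRNA group and at 17.9, 23.1 and 16.9 CPM in the knockdown. Its highest and lowest knockdown values enclosed the middle control. The log2 fold change of *Tgfb1* was 0.07 (95% interval -0.39 to 0.52; edgeR adjusted p = 0.872) with all libraries and -0.07 (-0.41 to 0.27; edgeR adjusted p = 0.829) without Ctrl shRNA replicate 2. *Tgfb3* (chr12:86056745-86079041, minus strand), needed for palate and lung development, stood at 61.7, 45.8 and 59.9 CPM and at 54.9, 66.8 and 56.6 CPM. Here the lowest of the 6 values was again that of Ctrl shRNA replicate 2. Its log2 fold change was 0.09 (-0.25 to 0.44; edgeR adjusted p = 0.763), and -0.04 without that library.

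**Figure D1:**
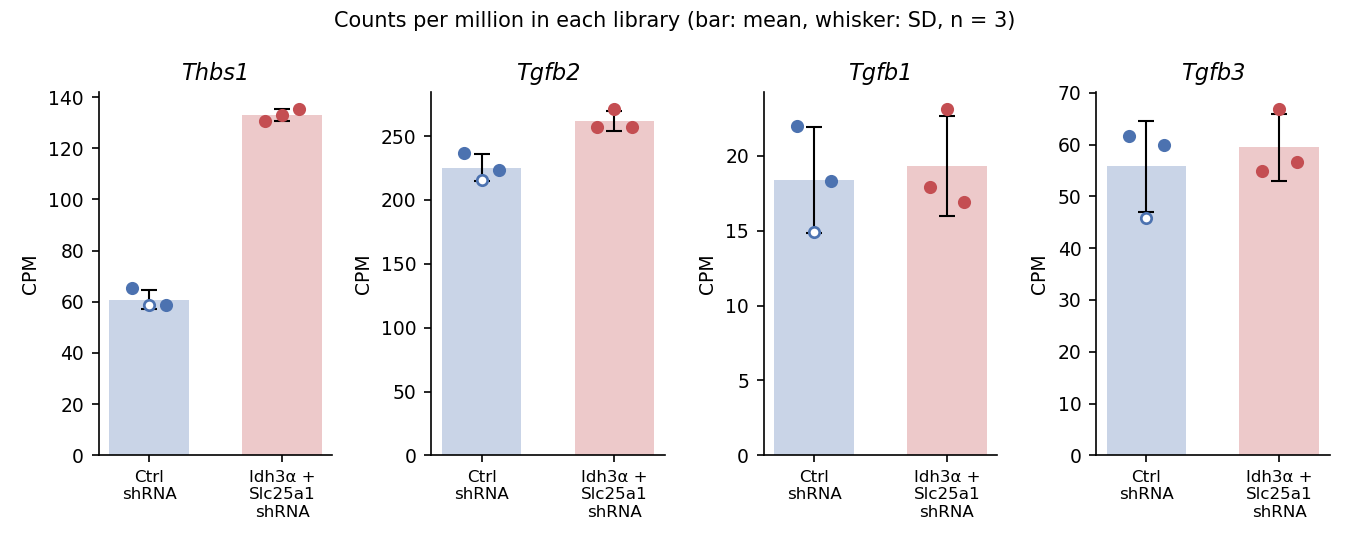
CPM in each library for *Thbs1* and the 3 ligand genes, with bars at the mean of each group, whiskers at 1 SD (n = 3), 1 point per library and Ctrl shRNA replicate 2 as an open point. The groups are apart for *Thbs1* (60.9 against 133 CPM) and *Tgfb2* (225 against 262 CPM) and overlap for *Tgfb1* and *Tgfb3*. Over all genes tested 14.7% are apart in the higher direction.

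The make-up of the ligand pool varied little over the 6 libraries. By FPKM, *Tgfb2* made up 64.4 to 69.3% of the summed ligand transcripts, *Tgfb3* 25.2 to 29.5% and *Tgfb1* 5.19 to 6.87%, and the order was the same in every library. The share of *Tgfb2* was 66.0 ± 2.85% in the Ctrl shRNA group and 67.9 ± 1.87% in the knockdown, and the groups overlapped. The summed ligand FPKM was 63.8, 53.3 and 60.5 in the Ctrl shRNA group and 64.4, 71.3 and 64.8 in the knockdown. The groups did not overlap there, by a narrow margin, and 3 samples against 3 cannot reach a two-sided exact permutation p below 0.1. The FPKM ratio of *Thbs1* to *Tgfb2* was 0.263, 0.259 and 0.251 in the Ctrl shRNA group and 0.484, 0.468 and 0.501 in the knockdown, so the thrombospondin was at a larger fraction of the level of the most abundant ligand gene in each knockdown library.

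**Figure D2:**
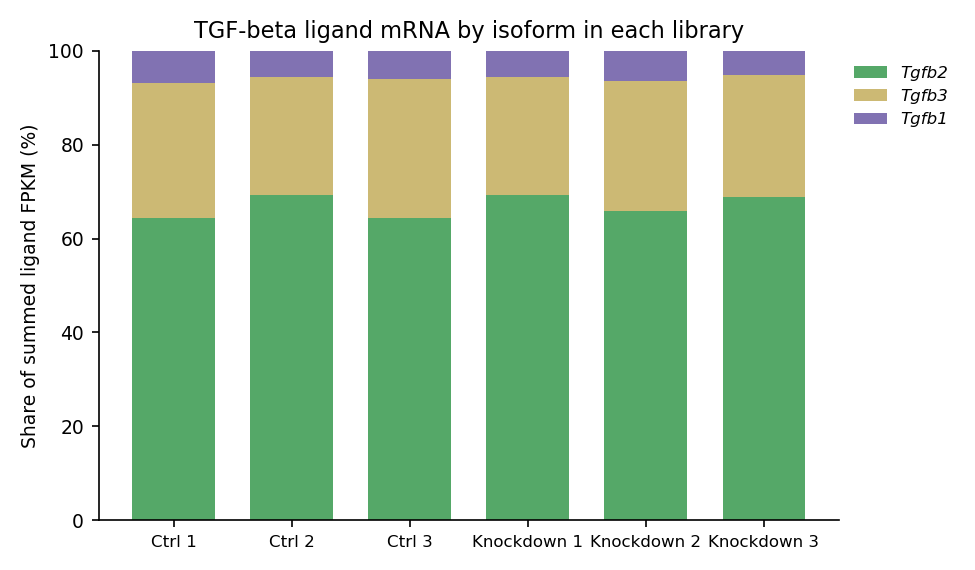
Share of each TGF-β ligand gene in the summed FPKM of the 3 ligand genes, 1 stacked bar per library, on a percent axis. *Tgfb2* takes 64.4 to 69.3% of every bar and *Tgfb1* no more than 6.87%.

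The promoters of the most and the least abundant ligand genes, and that of the silent *Thbs2*, are shown because the first pair are the ends of the ligand range and the last had no counts. They are RefSeq windows on GRCm38.p6, from 250 bases before to 50 bases after the annotated start, written 5′ to 3′ on the gene's strand. A window was at hand for 6 of the 9 genes. Capitals mark matches on either strand to the SMAD box CAGAC, the AP-1 site TGACTCA, the EGR site GCGNGGGCG, the NF-κB site (GGGA and CC, 4 bases apart), the E-box CACGTG, the SRF CArG box or the TATA box TATAAA, the last of which was added after the sequences had been seen.
Tgfb2, chr1:186705940-186706239, minus strand: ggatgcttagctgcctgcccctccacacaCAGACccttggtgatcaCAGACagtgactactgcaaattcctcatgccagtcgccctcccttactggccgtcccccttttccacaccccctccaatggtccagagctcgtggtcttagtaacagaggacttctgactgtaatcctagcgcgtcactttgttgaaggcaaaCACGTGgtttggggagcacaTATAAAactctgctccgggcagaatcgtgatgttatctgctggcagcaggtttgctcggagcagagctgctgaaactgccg
Tgfb1, chr7:25686752-25687051, plus strand: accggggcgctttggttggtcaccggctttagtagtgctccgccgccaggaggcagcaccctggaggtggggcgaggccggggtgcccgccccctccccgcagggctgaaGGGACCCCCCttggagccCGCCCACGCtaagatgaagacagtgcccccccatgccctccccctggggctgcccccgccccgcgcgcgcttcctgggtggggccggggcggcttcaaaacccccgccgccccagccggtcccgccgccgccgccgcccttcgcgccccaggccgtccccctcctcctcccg
Thbs2, chr17:14694213-14694512, minus strand: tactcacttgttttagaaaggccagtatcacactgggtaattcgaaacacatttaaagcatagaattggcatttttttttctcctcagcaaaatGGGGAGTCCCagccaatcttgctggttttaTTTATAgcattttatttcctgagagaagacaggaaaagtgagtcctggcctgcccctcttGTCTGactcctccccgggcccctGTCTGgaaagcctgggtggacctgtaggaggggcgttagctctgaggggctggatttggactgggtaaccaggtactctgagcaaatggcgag
The *Tgfb2* window held SMAD boxes at positions -221 and -204 from the start, an E-box at -51 and a TATA box at -31, the usual place for that element. The *Tgfb1* window held an NF-κB match at -140 and an EGR match at -122, had no TATA box, and was 77.0% G and C with 30 CG dinucleotides, against 54.3% and 10 for *Tgfb2* and medians of 52.7% and 7 over all 32851 windows. The *Thbs2* window was the poorest of the 3 in G and C, at 48.3% with 4 CG dinucleotides, and held SMAD boxes at -66 and -43, an NF-κB match at -156 and a reversed TATA box at -126. Of all windows, 49.6% held a SMAD box, 20.7% an NF-κB match, 13.6% a TATA box, 7.15% an E-box, 5.55% an EGR match, 5.20% an AP-1 site and 1.63% a CArG box. A match describes the letters only.

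Receptor transcripts overlapped between the groups. *Tgfbr1* (ENSMUSG00000007613, chr4:47353222-47414931, plus strand) encodes the type I receptor kinase that phosphorylates SMAD proteins. It stood at 27.2, 26.4 and 25.7 CPM in the Ctrl shRNA group and at 29.1, 26.0 and 29.9 CPM in the knockdown, with the lowest knockdown library inside the control range. The log2 fold change of *Tgfbr1* was 0.10 (SE 0.09, 95% interval -0.11 to 0.31; edgeR adjusted p = 0.568), and 0.09 without Ctrl shRNA replicate 2. *Tgfbr2* (ENSMUSG00000032440, chr9:116084293-116175360, minus strand) encodes the type II receptor that binds the ligand first. It stood at 489, 412 and 443 CPM in the Ctrl shRNA group and at 445, 451 and 445 CPM in the knockdown, where the controls spread on both sides of 3 closely grouped knockdown libraries. The means were 448 ± 39.0 and 447 ± 3.53 CPM, and the 95% interval of the log2 fold change ran from -0.24 to 0.23 (edgeR adjusted p = 0.991). Without Ctrl shRNA replicate 2 the log2 fold change of *Tgfbr2* was -0.07 (-0.23 to 0.09). By FPKM, *Tgfbr2* was 11.9 to 14.3 times the level of *Tgfbr1* in the 6 libraries. The 2 receptor genes summed to 58.9 ± 5.23 FPKM in the Ctrl shRNA group and 59.1 ± 0.107 FPKM in the knockdown, a spread far narrower among the knockdown libraries.

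*Smad7* (ENSMUSG00000025880, chr18:75367529-75395935, plus strand), the inhibitory SMAD that is itself induced by TGF-β, stood at 12.4, 9.06 and 12.8 CPM in the Ctrl shRNA group and at 14.8, 11.7 and 13.1 CPM in the knockdown. The lowest knockdown value lay below 2 of the controls, so the groups overlapped. Its log2 fold change was 0.21 (SE 0.17, 95% interval -0.21 to 0.63; edgeR adjusted p = 0.547), and 0.06 without Ctrl shRNA replicate 2, whose value was the lowest of the 6.

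Ordered by FPKM over all libraries, *Tgfbr2* came first (mean 54.8, range 49.9 to 60.1), then *Tgfb2* (42.2, 37.0 to 46.9), *Tgfb3* (17.1, 13.4 to 19.8) and *Thbs1* (16.0, 9.58 to 22.3). *Tgfbr1* (4.20, 3.97 to 4.59), *Tgfb1* (3.75, 2.93 to 4.59), *Smad7* (2.73, 1.99 to 3.29) and *Thbs3* (0.724, 0.569 to 0.833) followed. The ranges of neighbours overlapped for *Tgfb3* and *Thbs1*, for *Tgfbr1* and *Tgfb1*, and for *Tgfb1* and *Smad7*. The ligand-binding receptor and *Tgfb2* were thus the most abundant transcripts of the set in these cells. *Thbs1* and *Tgfb3* changed places between the groups, *Thbs1* lying below *Tgfb3* in each Ctrl shRNA library at 9.58 to 10.8 FPKM and above it in each knockdown library at 21.6 to 22.3 FPKM.

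**Figure D3:**
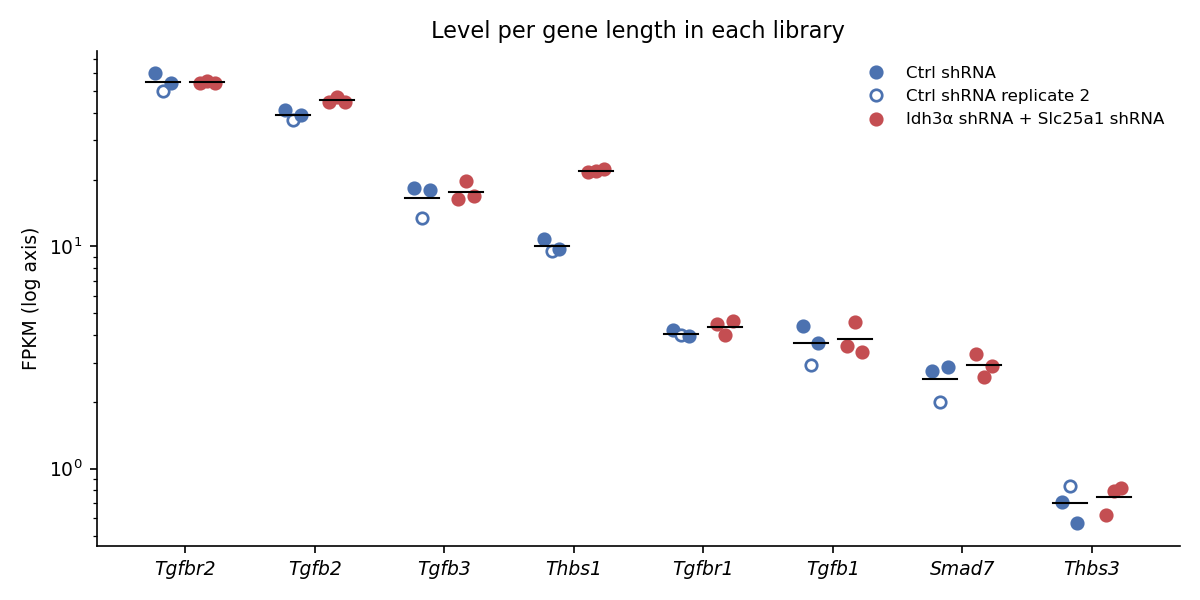
FPKM on a log axis for the 8 genes with counts, 1 point per library, with a line at the mean of each group (n = 3) and Ctrl shRNA replicate 2 as an open point. *Thbs1* moves from 9.58 to 10.8 FPKM in the Ctrl shRNA group to 21.6 to 22.3 FPKM in the knockdown, past *Tgfb3*, while the group means of the other genes keep their order.

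Set side by side, 1 of the 8 tested genes, *Thbs1*, was past the threshold in the higher direction, where 0.0588% of all genes tested were, and 0 were past it in the lower direction, where 0.00653% were. The same counts held without Ctrl shRNA replicate 2 (1.11% of all genes higher and 0.675% lower) and with DESeq2 (1.55% and 0.958%). With limma voom and sample quality weights *Thbs1* and *Tgfb2* passed, where 8.67% of all genes were higher, and 0 passed as lower, where 6.34% were. At an unadjusted p under 0.05 edgeR also gave *Thbs1* and *Tgfb2* as higher and none as lower, against 7.47% and 6.65% of all genes. The CPM of the groups did not overlap for these same 2 genes, both higher, against 14.7% of all genes higher and 10.7% lower. *Thbs1* was chosen on this contrast, which leaves *Tgfb2* as 1 of 7 in the counts that hold it. For the 7 genes other than *Thbs1* the median log2 fold change was 0.09 against -0.01 over all genes tested, with 6 of 7 above 0, and 0.06 against -0.02 with 4 of 7 above 0 without Ctrl shRNA replicate 2. Each of the 7 intervals excluded a 2-fold difference in either direction, with and without that library. Ctrl shRNA replicate 2 held the lowest CPM of the 6 libraries for 6 of the 8 genes, where it did so for 38.6% of all genes tested. The log2 fold change was larger with that library than without it for each tested gene except *Thbs3*.

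**Figure D4:**
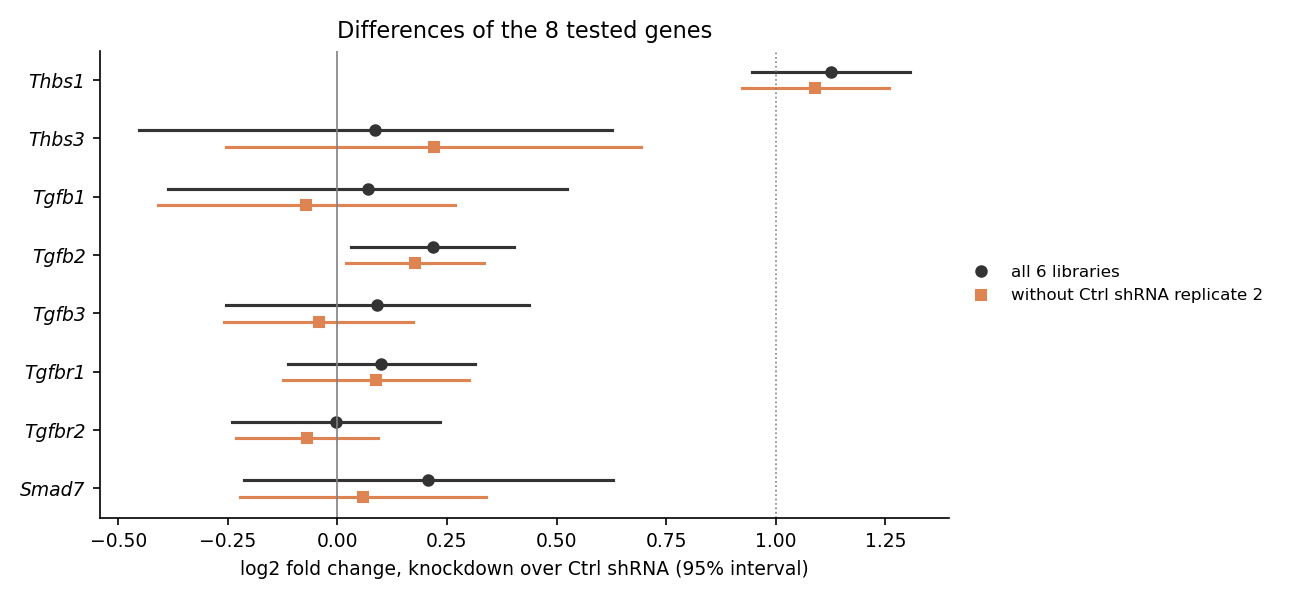
Log2 fold change of the knockdown over Ctrl shRNA for the 8 tested genes, with 95% intervals from edgeR, for all 6 libraries (circles) and without Ctrl shRNA replicate 2 (squares). The solid line marks 0 and the dotted line 1, a 2-fold difference, and only the intervals of *Thbs1* reach the dotted line.

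The genes whose log2 CPM followed *Thbs1* most closely over the 6 libraries were *Tnfaip3*, *Csf1* and *Plk2* (Pearson r = 0.999 each), *Aatf* (r = 0.996) and *Bmp2* (r = 0.994). These correlations describe 6 shared libraries and mostly the gap between the 2 groups, and carry no test. *Bmp2*, a bone morphogenetic protein of the wider TGF-β family, stood at 20.4, 17.7 and 17.1 CPM in the Ctrl shRNA group and at 32.1, 34.5 and 34.2 CPM in the knockdown. Its log2 fold change was 0.87, or 0.83 without Ctrl shRNA replicate 2. Being picked for its likeness to *Thbs1*, which was itself chosen on this contrast, fixes that separation of the groups, so it is given with no test. *Tnfaip3*, an inhibitor of NF-κB signalling, differed by 1.87 on the log2 scale, *Csf1*, the macrophage growth factor, by 1.17, *Plk2*, a stress-responsive kinase, by 1.07, and *Aatf*, a transcriptional co-factor, by 0.35. These differences were 1.82, 1.11, 1.04 and 0.33 in the same order without Ctrl shRNA replicate 2. Of the axis itself, *Tgfb2* had an r of 0.945 with *Thbs1* (rank 274 among the genes tested), *Tgfbr1* 0.619, *Smad7* 0.527, *Tgfb3* 0.335, *Tgfb1* 0.230, *Thbs3* 0.228 and *Tgfbr2* 0.0902.

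The wider pathway was read in 6 lists of 102 further genes, of which 88 were tested. With all 6 libraries edgeR placed 0 of the 88 past the threshold in either direction, and at an unadjusted p under 0.05 it gave 14 as higher and 3 as lower, 15.9% and 3.41% of the 88 against 7.47% and 6.65% of all genes. Without Ctrl shRNA replicate 2 it placed 2 higher (*Sdc4* and *Myc*) and 1 lower (*Itgb3*), where 1.11% and 0.675% of all genes were. DESeq2 on all libraries called 3 of 86 higher (*Sdc4*, *Myc* and *Itga3*, adjusted p = 0.0193, 0.000383 and 0.0221) and 1 lower (*Itgb3*, adjusted p = 0.00119), against 1.55% and 0.958% of all genes. Limma voom with sample quality weights called 16 of the 88 higher and 4 lower, against 8.67% and 6.34%. The 16 were *Cd47*, *Calr*, *Itga3*, *Sdc4*, *Ltbp4*, *Itgb8*, *Smad3*, *Smad9*, *Crebbp*, *Smurf1*, *Nedd4l*, *Usp15*, *Fst*, *Fn1*, *Zeb2* and *Myc*, and the 4 were *Itgb3*, *Itgb5*, *Itgb6* and *Cdkn2b*. The median log2 fold change of the 88 genes was 0.05, with 55 above 0. Over all genes tested 7460 of 15307 were above 0 with a median of -0.01, and 7434 of 15709 with a median of -0.02 without Ctrl shRNA replicate 2, beside which the counts of each list below stand. Among the 88 the groups did not overlap for 19 higher and 6 lower genes, 21.6% and 6.82% of the 88 against 14.7% and 10.7% of all genes.

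The first list held the other thrombospondins, *Thbs4* and *Comp*, together with thrombospondin receptors and partners. Of its tested genes 8 of 11 had a log2 fold change above 0, with a median of 0.10, and 6 of 11 with a median of 0.12 without Ctrl shRNA replicate 2. *Sdc4*, a heparan sulfate proteoglycan of the cell surface, stood at 153, 126 and 152 CPM in the Ctrl shRNA group and at 214, 196 and 202 CPM in the knockdown. The groups did not overlap, with a log2 fold change of 0.50 (edgeR adjusted p = 0.209) and of 0.41 without Ctrl shRNA replicate 2, where it rose past the threshold (edgeR adjusted p = 0.0276). *Itga3*, an integrin subunit, stood at 378, 320 and 325 CPM and at 458, 461 and 456 CPM, and was called by DESeq2 (adjusted p = 0.0221) and voom with sample quality weights (adjusted p = 0.00357) and not by edgeR (log2 fold change 0.43, adjusted p = 0.251, and 0.37 with adjusted p = 0.0641 without Ctrl shRNA replicate 2). *Cd47*, the receptor through which *Thbs1* protein signals to cells, stood at 133 ± 15.9 and 143 ± 11.1 CPM (log2 fold change 0.10, edgeR adjusted p = 0.645). Without Ctrl shRNA replicate 2 the log2 fold change of *Cd47* was 0.20 (edgeR adjusted p = 0.221), and limma voom with sample quality weights called it higher, at 0.24 with an adjusted p of 0.0401. *Cd36*, the other classical receptor, did not exceed 0.607 CPM in any library and was not tested.

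Of the latent complex and its activators, 10 of 17 tested genes lay above 0, with a median log2 fold change of 0.01, and 9 of 17 with a median of 0.04 without Ctrl shRNA replicate 2. *Itgb3*, the integrin β subunit that pairs with the αv chain and can bind latent TGF-β, was lower, at 32.7, 30.2 and 27.7 CPM in the Ctrl shRNA group and 20.4, 17.8 and 20.1 CPM in the knockdown. The groups did not overlap. Its log2 fold change was -0.64 (edgeR adjusted p = 0.174), and -0.65 without Ctrl shRNA replicate 2, where it fell past the threshold (edgeR adjusted p = 0.0274). Its partner *Itgav* stood at 287 ± 25.5 and 289 ± 11.5 CPM (log2 fold change 0.01, and 0.04 without Ctrl shRNA replicate 2). *Itgb6*, the epithelial β chain known for activating latent TGF-β in the lung, stood at 4.34 ± 0.928 and 2.84 ± 0.359 CPM without overlap (log2 fold change -0.61, edgeR adjusted p = 0.347, and -0.49 without Ctrl shRNA replicate 2), and voom with sample quality weights called it lower (adjusted p = 0.0339). *Itgb8*, another β chain that activates latent TGF-β, had a log2 fold change of 0.37 (edgeR adjusted p = 0.359) and of 0.52 without Ctrl shRNA replicate 2, and the same voom fit called it higher (adjusted p = 0.0334). *Ltbp1*, which tethers the latent complex to the matrix, was scarce at 0.607 ± 0.198 and 0.724 ± 0.0439 CPM (0.26, edgeR adjusted p = 0.744, and 0.43 without Ctrl shRNA replicate 2). *Furin*, the protease that cuts the ligand precursors, stood at 31.4 ± 5.49 and 31.7 ± 0.594 CPM (0.01, edgeR adjusted p = 0.966), and its log2 fold change turned to -0.13 without Ctrl shRNA replicate 2.

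Of the co-receptors and other receptors of the family 4 of 9 lay above 0, with a median of -0.03, and 5 of 9 with a median of 0.00 without Ctrl shRNA replicate 2. The co-receptor *Tgfbr3*, which presents *Tgfb2* ligand to the type II receptor, stood at 4.50 ± 1.87 and 5.58 ± 0.633 CPM, a log2 difference of 0.30 that was 0.00 without Ctrl shRNA replicate 2. Of the SMADs and their co-factors 10 of 11 lay above 0, with a median of 0.10 and none past the threshold in edgeR, and 9 of 11 with a median of 0.06 without Ctrl shRNA replicate 2. *Smad3*, a receptor-activated SMAD, stood at 90.7 ± 13.4 and 112 ± 2.74 CPM without overlap (log2 fold change 0.31, edgeR adjusted p = 0.349, and 0.20 without Ctrl shRNA replicate 2), and voom with sample quality weights called it higher (adjusted p = 0.0248). *Smad2*, its partner, stood at 62.0 ± 5.39 and 66.4 ± 0.834 CPM (0.10, and 0.04 without that library), and the common-mediator *Smad4* at 139 ± 5.01 and 150 ± 7.81 CPM (0.10, and 0.06 without it). Of the inhibitors and feedback regulators 9 of 14 lay above 0, with a median of 0.06, and 8 of 14 with a median of 0.09 without Ctrl shRNA replicate 2. *Pmepa1*, a SMAD-induced inhibitor, stood at 35.8 ± 4.67 and 45.6 ± 4.70 CPM without overlap (0.35, edgeR adjusted p = 0.347, and 0.24 without Ctrl shRNA replicate 2). *Skil*, a repressor of SMAD transcription, stood at 71.1 ± 2.01 and 67.7 ± 6.92 CPM (-0.07, and -0.06 without Ctrl shRNA replicate 2). With all libraries this list ran from -1.04 for *Dcn* (edgeR adjusted p = 0.379) to 0.61 for *Fst* (edgeR adjusted p = 0.338), each without overlap. Without Ctrl shRNA replicate 2 the log2 fold change of *Dcn* was -0.15 and that of *Fst* 0.75 (edgeR adjusted p = 0.284 and 0.0704).

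Among TGF-β response genes 14 of 26 lay above 0, with a median log2 fold change of 0.02, the same count and median as without Ctrl shRNA replicate 2. At an unadjusted p under 0.05 edgeR gave 5 of the 26 (19.2%) as higher and 1 (3.85%) as lower, against 7.47% and 6.65% of all genes. The groups did not overlap for 6 higher (23.1%) and 2 lower (7.69%) genes, against 14.7% and 10.7%. *Fn1*, the matrix protein fibronectin, stood at 511, 416 and 444 CPM in the Ctrl shRNA group and at 540, 635 and 554 CPM in the knockdown, without overlap (log2 fold change 0.34, edgeR adjusted p = 0.346, and 0.26 without Ctrl shRNA replicate 2), and voom with sample quality weights called it higher (adjusted p = 0.0280). *Cdkn2b*, a cell-cycle inhibitor that TGF-β induces in epithelia, had a log2 fold change of -0.33 without overlap (edgeR adjusted p = 0.310, and -0.34 without Ctrl shRNA replicate 2), and the same voom fit called it lower (adjusted p = 0.0307). The matricellular genes *Ccn1* (listed as *Cyr61*) and *Ccn2* (listed as *Ctgf*) stood at 526 ± 34.0 and 542 ± 47.7 CPM and at 93.1 ± 2.70 and 98.7 ± 11.4 CPM, with log2 fold changes of 0.04 and 0.08. They were -0.02 and 0.09 without Ctrl shRNA replicate 2, so that of *Ccn1* (*Cyr61*) turned sign and that of *Ccn2* (*Ctgf*) did not. *Tgfbi*, a matrix protein named for its induction by TGF-β, had 0 counts in every library. *Myc*, which TGF-β represses in many epithelia, stood at 66.4, 62.4 and 65.8 CPM and at 99.7, 117 and 93.5 CPM, and rose past the threshold without Ctrl shRNA replicate 2 (log2 fold change 0.64, edgeR adjusted p = 0.0211, and 0.67 with edgeR adjusted p = 0.144 with all libraries). DESeq2 called *Myc* higher with all libraries (adjusted p = 0.000383).

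**Figure D5:**
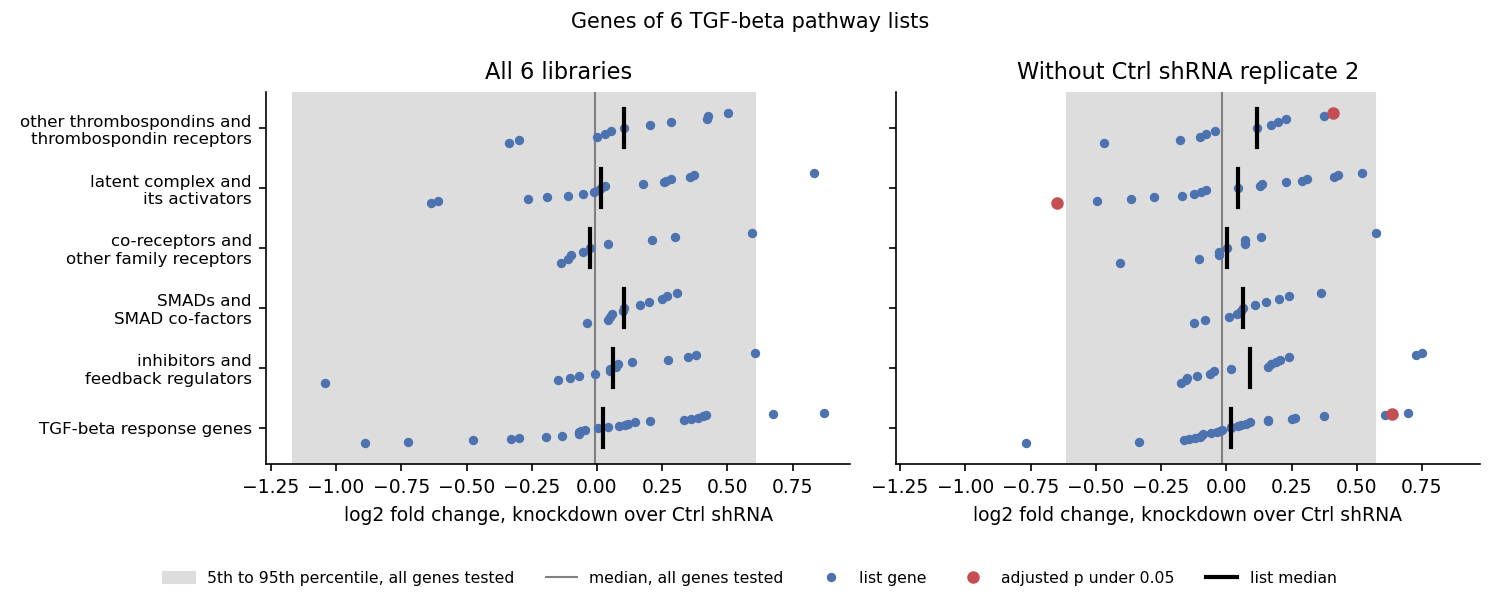
Log2 fold change of the knockdown over Ctrl shRNA for each tested gene of 6 pathway lists, with all 6 libraries on the left and without Ctrl shRNA replicate 2 on the right. Black bars mark list medians, the grey band the 5th to 95th percentile of all genes tested and red points an edgeR adjusted p under 0.05. The medians lie between -0.03 and 0.10 on the left.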

How the data were processed

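The 6 MLE12 RNA-seq samples were grouped by their titles into 3 Ctrl shRNA and 3 Idh3α shRNA + Slc25a1 shRNA samples, with no sample left out and 0 columns of per-sample values unused. The deposited counts are whole numbers of reads for each Ensembl gene, not normalized. The deposited FPKM values are those counts over gene length and a library size set by the authors, 0.716 to 1.08 times the total count. The submitters' processing notes name HISAT2 2.0.5, StringTie 1.3.3b, featureCounts 1.5.0-p3 and the build mm10, with no role given, and the labels name a Trinity assembly and a paired-end Illumina kit. The use of strand is not given in the sources used here. Of the genes, 54409 were in the GENCODE M21 annotation of GRCm38, 98.3% of them with the same start and end.

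Genes passing filterByExpr were scaled by TMM and fitted with edgeR 4.0.16 (quasi-likelihood test, R 4.3.3, no covariate) over 15307 genes, with a threshold of 0.05 on the Benjamini-Hochberg adjusted p. CPM uses the same factors. No pair of libraries agreed within sampling noise in a chi-square comparison of counts. Levels were compared between genes by FPKM only. Total counts per sample were 27273502 to 28535653, and limits for a count of 0 cover counting error only. Scripts were tested on simulated data.

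The alternatives were median-of-ratios factors, total counts, no filter, at least 10 counts in every sample, DESeq2 1.42.0, limma 3.58.1 with voom and sample quality weights, limma on log2(FPKM + 1) or log2(FPKM + 0.1) for genes with a mean FPKM of at least 0.5, each library left out, a block for the replicate number, DESeq2 without Ctrl shRNA replicate 2, and an unadjusted p under 0.05. The members and the lists, which were written from general knowledge, were chosen with earlier results of these data known. The text names the 9 members, the targeted genes, the defining cell markers, the 5 genes most like *Thbs1*, the list genes set whatever their values, and each list gene past the threshold in edgeR with or without Ctrl shRNA replicate 2. *Itga3*, *Thbs4*, *Comp*, the list genes called by voom alone and the genes that overlap a member were named after their values were seen. So were *Dcn*, *Itga2b* and *Tek*. Some items are not reported here. Promoters came from RefSeq (GRCm38.p6). Tables used pandas 2.3.3 and figures matplotlib 3.10.9 in Python 3.11.15.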

Additional observations from a re-analysis of the deposited data

How the results depend on the processing

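*Thbs1* was higher under every alternative run, with log2 fold changes of 1.06 to 1.29 and edgeR, limma or DESeq2 adjusted p-values of up to 0.455. It missed the threshold with total counts only (1.29, edgeR adjusted p = 0.455), with the replicate number as a block (1.13, edgeR adjusted p = 0.446) and without any single library other than Ctrl shRNA replicate 2 (1.09 to 1.18). With that block 0 genes were higher, 0 lower and 0 members higher. Deviations of same-numbered samples from their group means correlated at -0.155, -0.0920 and 0.0430, and those of unlike-numbered samples at -0.0392 to 0.146. With 3 libraries a group, and 1 of them far from the rest, these values cannot decide whether the replicate numbers pair the samples. Fewer residual degrees of freedom enter the block and the fits without a library, among them the fit without Ctrl shRNA replicate 2, where *Thbs1* passed. Why the other fits missed the threshold was not tested. Using total counts only moved the median of all genes up by 0.17 on the log2 scale and gave 1 gene higher, 0 lower and 0 members higher.

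Over all genes tested, where the 6 libraries gave 9 higher and 1 lower, DESeq2 gave 218 higher and 135 lower, voom with quality weights 1327 and 971, an unadjusted p under 0.05 1144 and 1018, and DESeq2 without Ctrl shRNA replicate 2 490 and 330. Leaving out a library gave 0 to 175 higher and 0 to 106 lower, the upper ends without Ctrl shRNA replicate 2, and 0 to 1 members higher. Lower genes numbered 3 with no filter, 2 with log2(FPKM + 1) and 3 with log2(FPKM + 0.1). Members higher numbered 2 under voom with quality weights and 2 with an unadjusted p. Pathway list genes numbered 3 higher and 1 lower with DESeq2, 16 and 4 with voom, 7 and 3 with DESeq2 without Ctrl shRNA replicate 2, 14 and 3 with an unadjusted p, and 0 to 2 and 0 to 1 with a library left out.

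Differences near 0 changed sign, and the cause was not tested. *Tgfb1* became -0.0335 under voom with quality weights, -0.0639 with DESeq2 without Ctrl shRNA replicate 2, and -0.0769 to 0.22 with a library left out. *Tgfb3* became -0.0612, -0.0355 and -0.0422 to 0.17 in the same order. *Thbs3* became -0.0633 without Ctrl shRNA replicate 3. *Tgfbr2* became 0.16 with total counts only, 0.00686 with no filter, 0.00203 with log2(FPKM + 1), 0.00213 with log2(FPKM + 0.1), 0.00122 with the replicate block, and -0.0694 to 0.0699 with a library left out. *Tgfbr1* and *Smad7* kept sign and side of the threshold under all 16 alternatives, and *Tgfb2* passed it only under voom with quality weights (0.20). With 3 libraries a group, and 1 of them far from the rest, the 95% intervals of *Tgfb2* and *Smad7* reached log2 fold changes of 0.40 and 0.63.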
